A study of Mus musculus with 14 samples.

Results

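The Hox genes are homeobox transcription factor genes that lie in 4 clusters, HoxA to HoxD, and were measured here by poly(A) RNA-seq in mouse embryonic stem cells. Members were every row of the count tables whose Ensembl gene identifier carries a protein-coding Hox symbol of cluster A, B, C or D. Of 37991 identifiers, 38 met this rule: 11 in HoxA on chromosome 6, 10 in HoxB on chromosome 11, 9 in HoxC on chromosome 15 and 8 in HoxD on chromosome 2. Of 39 such symbols in the GENCODE M21 annotation, Hoxd4 was not analysed here. All cells were of the J1 line, strain 129S4/SvJae. Experiment 1 held 4 groups of 2 libraries each: Dnmt1/Dnmt3a/Dnmt3b triple knockout (TKO) cells given PRT4165, which the labels call a PRC1 inhibitor, TKO cells given the vehicle DMSO, wild-type cells given PRT4165 and wild-type cells given DMSO. Experiment 2 held 3 groups of 2 untreated libraries: Tet1 knockout TKO cells, TKO cells and wild-type cells. Within J1, each genotype is a separate line, so genotype and line cannot be told apart. The labels do not say whether the 2 libraries of a group came from separate cultures.

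Within each cluster the genes are numbered by paralogue position, from 1 at the 3′ end to 13 at the 5′ end. In the embryo the 3′ genes are switched on early and pattern anterior structures, and the 5′ genes are switched on later and pattern posterior structures, limbs and genitalia. In embryonic stem cells the clusters are textbook targets of the polycomb complexes, PRC1, which ubiquitinates histone H2A, and PRC2, which methylates histone H3, and most of their genes are nearly silent. The DNA methyltransferases Dnmt1, Dnmt3a and Dnmt3b maintain and place CpG methylation, and Tet1 oxidises it.

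Library totals ran from 25588815 to 37399837 counts in experiment 1 and from 23354015 to 41844823 in experiment 2, so that 1 count was worth 0.0245 to 0.0441 CPM, the count scaled to library size. The genotype labels were checked on the deleted genes. Dnmt1 stood at 128 and 128 CPM in TKO cells with DMSO, against 424 and 434 CPM in wild-type cells with DMSO. Dnmt3a stood at 41.0 and 41.9 CPM, against 103 and 99.1 CPM, and Dnmt3b at 41.2 and 44.0 CPM, against 179 and 197 CPM, in the same groups. Tet1 stood at 134 and 201 CPM in Tet1 knockout TKO cells, against 791 and 742 CPM in untreated TKO cells. Transcript remained in each knockout, and a gene-level count cannot show which exons it came from. Pluripotency markers summed to 4058 to 4086 CPM in TKO cells with DMSO and to 5320 to 5389 CPM in wild-type cells with DMSO, with all 10 listed markers detected in every library. Of these 10 markers, 7 were called lower and 3 higher in TKO cells with DMSO than in wild-type cells with DMSO.

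Hox transcripts were scarce in every group. The 38 genes together made up 33.3 ± 0.43 CPM in TKO cells with PRT4165, 23.4 ± 0.49 CPM in TKO cells with DMSO, 22.4 ± 2.33 CPM in wild-type cells with PRT4165 and 15.7 ± 0.39 CPM in wild-type cells with DMSO (SD, n = 2 each). In experiment 2 they made up 13.3 ± 1.15 CPM in Tet1 knockout TKO cells, 16.8 ± 3.14 CPM in TKO cells and 10.8 ± 2.86 CPM in wild-type cells (SD, n = 2 each). The 4 groups of experiment 1 differed by more than this spread except TKO with DMSO against wild type with PRT4165. In experiment 2 both TKO libraries lay above those of the other groups, and the Tet1 knockout TKO and wild-type libraries overlapped. Between same-numbered libraries, TKO cells exceeded wild-type cells by 5.82 and 6.21 CPM, and Tet1 knockout TKO cells differed from TKO cells by -2.13 and -4.93 CPM. In bulk samples, fewer cells of a type and less RNA per cell cannot be told apart.

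The number of members with no count in either library was 0 in TKO cells with PRT4165, 3 in TKO cells with DMSO, 3 in wild-type cells with PRT4165 and 9 in wild-type cells with DMSO. It was 7 in Tet1 knockout TKO cells, 3 in untreated TKO cells and 10 in untreated wild-type cells. Between 3 and 7 members reached a mean of 1 CPM in any group. Per kilobase of exon, the highest level in TKO cells with DMSO was that of Hoxd13 at 2.14 CPM per kb, followed by Hoxc13 at 1.55. In wild-type cells with DMSO, Hoxa5 stood at 1.23 CPM per kb and Hoxb9 at 0.584.

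**Figure D1:**
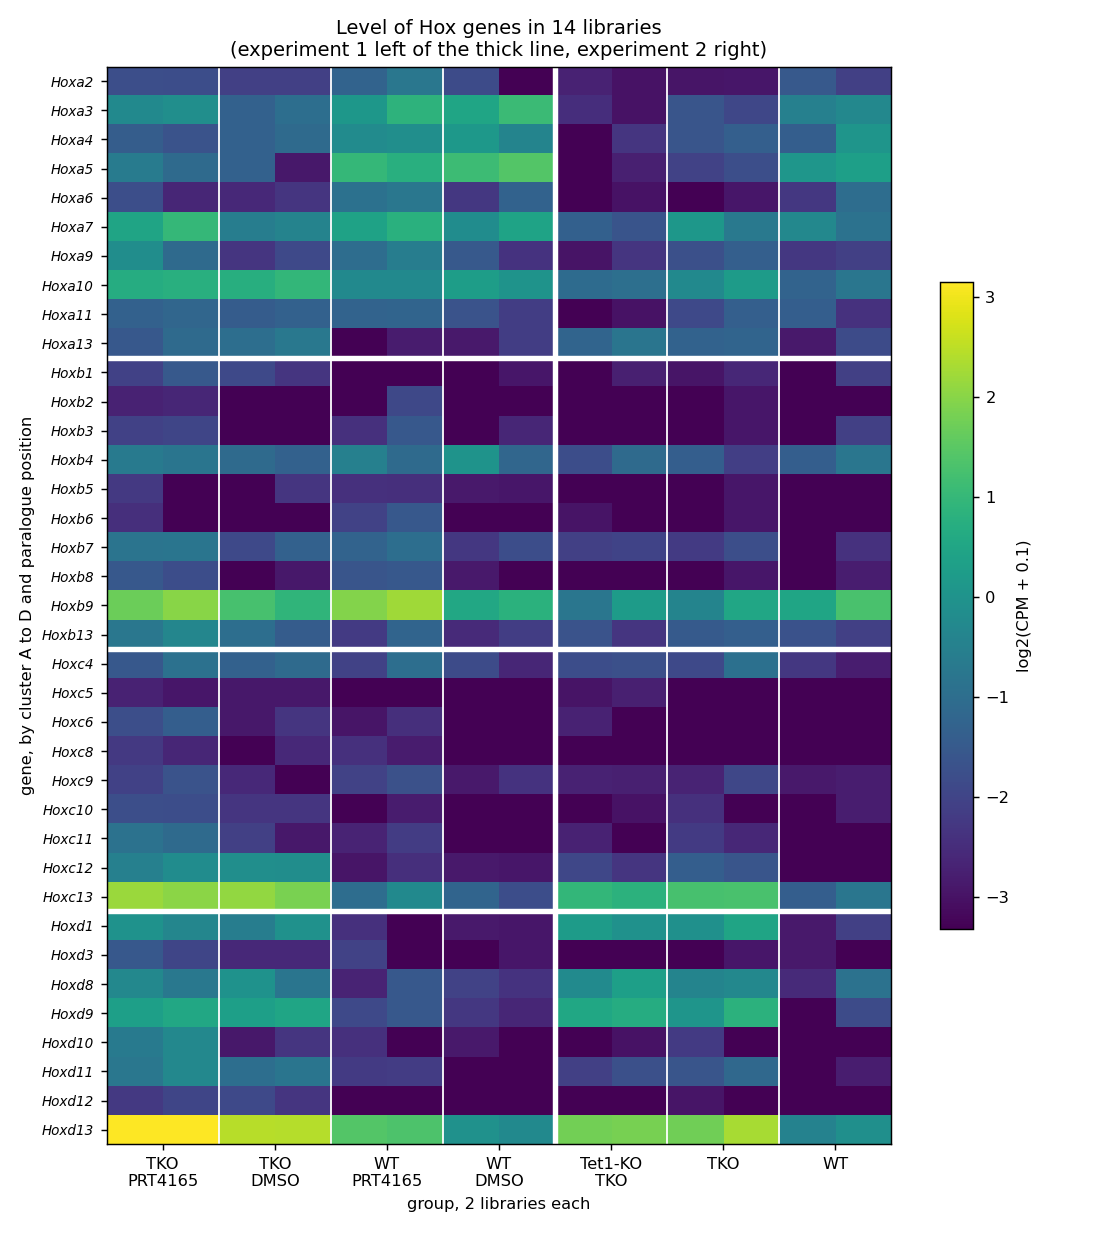
Level of Hox genes (down the page, by cluster and paralogue position) in each of 14 libraries (across), as the base-2 logarithm of CPM plus a small constant. TKO libraries are bright at the 5′ genes of HoxC and HoxD and wild-type libraries at Hoxa3 and Hoxa5, while most of HoxB and the middle of HoxC stay dark in every library.

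The clusters took different shares of this small total. HoxD supplied 36.4 to 37.4% of Hox CPM in TKO cells with DMSO, against 6.03 to 7.64% in wild-type cells with DMSO. HoxA supplied 25.6 to 28.4% in TKO cells with DMSO, against 72.5 to 76.5% in wild-type cells with DMSO. In CPM, HoxC summed to 5.30 ± 0.45 in TKO cells with DMSO and to 0.472 ± 0.14 in wild-type cells with DMSO, while HoxA summed to 6.33 ± 0.33 in TKO cells and to 11.7 ± 0.74 in wild-type cells (SD, n = 2 each). The ranges of the 2 libraries did not overlap between these groups for any of the 4 clusters. With 2 libraries per group, non-overlap here and below says little by itself. Its share over all genes was not counted. HoxB summed to 3.14 ± 0.37 CPM in TKO cells and 2.46 ± 0.05 CPM in wild-type cells.

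**Figure D2:**
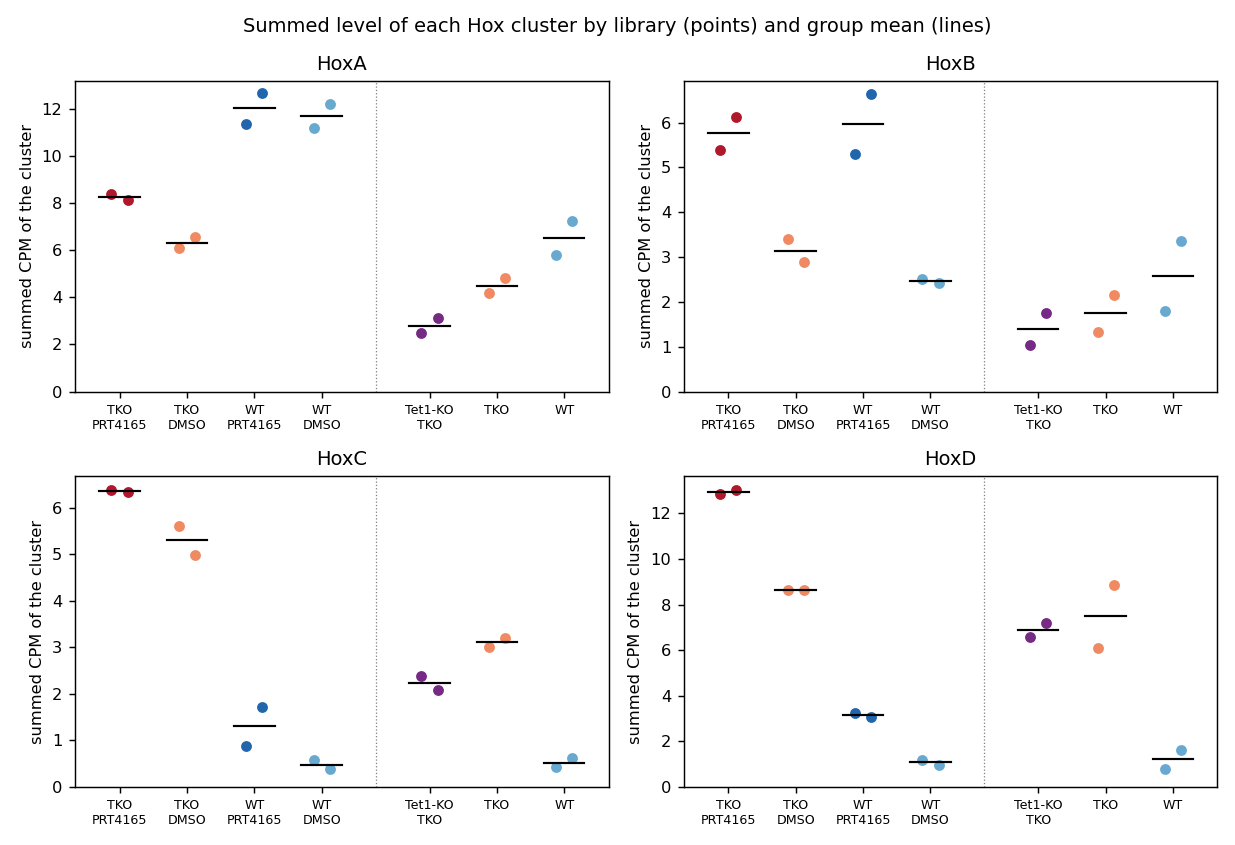
Summed CPM of each Hox cluster in each library, by group (points are libraries, lines group means). HoxD is the highest cluster in TKO cells with PRT4165, at 12.9 CPM, and HoxA is the highest in wild-type cells with DMSO, at 11.7 CPM.

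The first comparison asks which Hox genes differ when the 3 DNA methyltransferase genes are deleted, under vehicle. Of 23 members that passed the low-count filter, 11 were higher and 4 were lower in TKO cells with DMSO than in wild-type cells with DMSO by edgeR's quasi-likelihood test with Benjamini-Hochberg adjustment. Over all 16711 genes tested, 34.8% were higher and 34.2% lower, 69% in all. Scaling by library size alone put the median log2 fold change of all genes at 0.16, against 0.01, and the share of all calls that were higher at 63.5%, against 50.5%. A member silent in wild-type cells passes the filter only through the TKO libraries, so these counts describe the tested members only, and 15 members were not tested in either experiment. The highest group mean among those 15 in experiment 1 was 0.402 CPM, for Hoxa2 in wild-type cells with PRT4165. With only genes of mean 1 CPM or more in the fit, 8 members were tested, 3 higher and 3 lower.

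By cluster, HoxD had 5 of 6 tested members higher, HoxC 3 of 4 and HoxB 1 of 4, with 0 lower in each, also at an unadjusted p under 0.05, while HoxA had 2 of 9 higher and 4 lower. By position, members 9 to 13 had 9 of 12 tested higher and 0 lower, members 5 to 8 had 1 of 5 higher and 1 lower, and members 1 to 4 had 1 of 6 higher and 3 lower. The median log2 fold change of the 23 members was 1.49, or 0.76 with the 2 members that were silent in wild-type cells set at their lower bound, against 0.01 over all genes. Other members, such as Hoxc12 and Hoxd1 with 2 counts each in wild-type cells with DMSO, also passed the filter only through TKO libraries. Neither median is free of this filter, and both describe the tested members only.

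Promoter sequences of 4 members on which this comparison turns are shown so that the CpG content of the stretches upstream of their starts can be read. They are the 3 HoxD genes called higher in both experiments and Hoxa5, the member with the largest called decrease, and they were chosen after their values were seen. Each is 250 bases upstream of the RefSeq start, 5′ to 3′ on the gene's strand (GRCm38.p6), with every CG in capitals. Hoxd13 is chr2:74667975-74668224 (+), Hoxd9 is chr2:74697513-74697762 (+), Hoxd1 is chr2:74762730-74762979 (+) and Hoxa5 is chr6:52204588-52204837 (−).
Hoxd13: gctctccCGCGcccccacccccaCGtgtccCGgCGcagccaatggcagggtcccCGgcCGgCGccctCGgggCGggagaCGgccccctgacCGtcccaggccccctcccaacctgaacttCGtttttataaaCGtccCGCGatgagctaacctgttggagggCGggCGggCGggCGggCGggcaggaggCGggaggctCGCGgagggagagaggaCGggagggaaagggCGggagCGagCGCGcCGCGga
Hoxd9: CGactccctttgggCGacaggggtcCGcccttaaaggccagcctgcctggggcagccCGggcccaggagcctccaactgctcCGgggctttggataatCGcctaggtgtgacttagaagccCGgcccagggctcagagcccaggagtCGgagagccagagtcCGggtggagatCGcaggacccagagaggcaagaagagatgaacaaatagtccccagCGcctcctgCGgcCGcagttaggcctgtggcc
Hoxd1: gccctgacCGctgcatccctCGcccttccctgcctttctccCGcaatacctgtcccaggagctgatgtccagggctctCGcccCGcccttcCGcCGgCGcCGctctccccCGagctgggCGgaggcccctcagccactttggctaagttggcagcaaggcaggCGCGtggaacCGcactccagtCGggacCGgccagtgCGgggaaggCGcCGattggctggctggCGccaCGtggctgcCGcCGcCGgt
Hoxa5: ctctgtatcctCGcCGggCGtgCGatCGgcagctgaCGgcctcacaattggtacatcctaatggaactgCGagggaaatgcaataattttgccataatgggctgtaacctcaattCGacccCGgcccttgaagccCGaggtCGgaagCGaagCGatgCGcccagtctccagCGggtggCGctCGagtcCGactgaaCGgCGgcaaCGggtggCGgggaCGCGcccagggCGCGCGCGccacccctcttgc
These stretches hold 31 CG in Hoxd13, 13 in Hoxd9, 24 in Hoxd1 and 28 in Hoxa5, and CG reads the same on both strands. Of 32851 mouse promoters of the same length, 5.19% hold at least as many as Hoxd13, 31.5% as Hoxd9, 12% as Hoxd1 and 7.61% as Hoxa5. All 23 promoters found for 21 members hold a CG, as do 92.1% of all promoters. The median was 13 for the Hox promoters and 6 for all. RefSeq's start of Hoxd13 lies upstream of the GENCODE transcripts, and the last 36 bases of the Hoxd9 stretch lie in GENCODE's first Hoxd9 exon. On the opposite strand, exons of Gm28793 and Haglr cover 74 bases of the Hoxd9 stretch and 118 of the Hoxd1 stretch. DNA methylation was not measured in these files, so this is a description of sequence only.

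Among the 5′ genes that rose, Hoxd13, which patterns digits and genitalia, stood at 5.39 and 5.26 CPM in TKO cells with DMSO, against 0.857 and 0.746 CPM in wild-type cells with DMSO. The TKO libraries lay far above the wild-type ones, and the log2 fold change was 2.73 (SE 0.19, adjusted p = 4e-12). Hoxc13, needed for hair and nails, stood at 4.14 and 3.48 CPM in TKO cells, against 0.321 and 0.187 CPM in wild-type cells. Its groups did not overlap either, with a log2 fold change of 3.91 (SE 0.31, adjusted p = 4.4e-11). Hoxd9, a limb and trunk gene, stood at 1.14 and 1.31 CPM in TKO cells, against 0.107 and 0.0622 CPM in wild-type cells, a log2 fold change of 3.82 (SE 0.49, adjusted p = 2.3e-07). Both TKO libraries exceeded both wild-type ones for Hoxd9.

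Other 5′ genes were detected in TKO cells and nearly absent in wild-type cells. Hoxc12 stood at 0.808 and 0.804 CPM in TKO cells with DMSO, against 0.0357 and 0.0311 CPM in wild-type cells with DMSO. It had 48 counts over both TKO libraries and 2 over both wild-type libraries, a ratio of 24.2 (95% exact interval 6.35 to 206, counting error only; adjusted p = 2.2e-06 by edgeR). Hoxd11, a forearm and kidney gene, stood at 0.404 and 0.469 CPM in TKO cells and had 26 counts there, against 0 in both wild-type libraries, at least 8.75-fold higher (floor of 3 counts over the group). Hoxc11 had 5 counts in TKO cells and 0 in wild-type cells, at least 1.68-fold higher, and its call rested on single libraries: adjusted p was 0.12 without wild-type library 1, 0.143 without wild-type library 2 and 0.269 without TKO library 1. For Hoxb13, expressed in the tail bud and later in prostate, the 2 TKO libraries stood at 0.404 and 0.268 CPM, against 0.0714 and 0.124 CPM in wild-type libraries. Its log2 fold change of 1.71 (adjusted p = 0.03) fell short without wild-type library 1 (0.155), wild-type library 2 (0.0645) or TKO library 1 (0.191).

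Hoxa13, a limb and genital tract gene, stood at 0.404 and 0.502 CPM in TKO cells, against 0.0357 and 0.124 CPM in wild-type cells, and Hoxa10, a uterine and lumbar gene, at 1.55 and 1.84 CPM, against 1.11 and 0.902 CPM. Their log2 fold changes were 2.39 (adjusted p = 0.0029) and 0.76 (adjusted p = 0.013), and neither pair of groups overlapped. The Hoxa13 call was lost without wild-type library 1 (adjusted p = 0.0537), its log2 fold change being 3.50 without wild-type library 2, and that of Hoxa10 without wild-type library 2 (0.116) or TKO library 2 (0.102). Away from the 5′ end, Hoxd1, a sensory neuron gene in mouse and the most 3′ of HoxD, stood at 0.572 and 0.87 CPM in TKO cells, against 0.0357 and 0.0311 CPM in wild-type cells. It had 43 counts in TKO cells and 2 in wild-type cells, a ratio of 21.7 (95% exact interval 5.66 to 185). Hoxd8 stood at 0.875 and 0.469 CPM in TKO cells, against 0.143 and 0.0933 CPM in wild-type cells, with a log2 fold change of 2.49 (SE 0.60, adjusted p = 0.00077).

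The 4 members that fell were HoxA genes. Hoxa5, which patterns the respiratory tract, stood at 0.303 and 0.0335 CPM in TKO cells with DMSO, against 2.07 and 2.55 CPM in wild-type cells with DMSO. Both TKO libraries lay below both wild-type libraries. Its log2 fold change was -3.76 (SE 0.42, adjusted p = 2.7e-08). The call held without either TKO library, but the value was -5.95 without library 1, which had 9 counts, and -2.92 without library 2, which had 1 count. Hoxa3, needed for thymus and parathyroid, stood at 0.303 and 0.402 CPM in TKO cells, against 1.29 and 2.02 CPM in wild-type cells, a log2 fold change of -2.23 (SE 0.38, adjusted p = 1.3e-05). Hoxa4 stood at 0.303 and 0.368 CPM in TKO cells, against 1.00 and 0.653 CPM in wild-type cells, and neither Hoxa3 nor Hoxa4 had overlapping groups. For Hoxa4 the log2 fold change of -1.28 (adjusted p = 0.0085) was not called without wild-type library 1 (0.112) or TKO library 1 (0.0687). Exons of Hoxa3 overlap the antisense genes Hoxaas2 and Hoxaas3, and exons of Hoxa7 overlap Hoxaas3. The sources used here do not give the strand setting of the counting, so reads of such partners cannot be told apart.

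**Figure D3:**
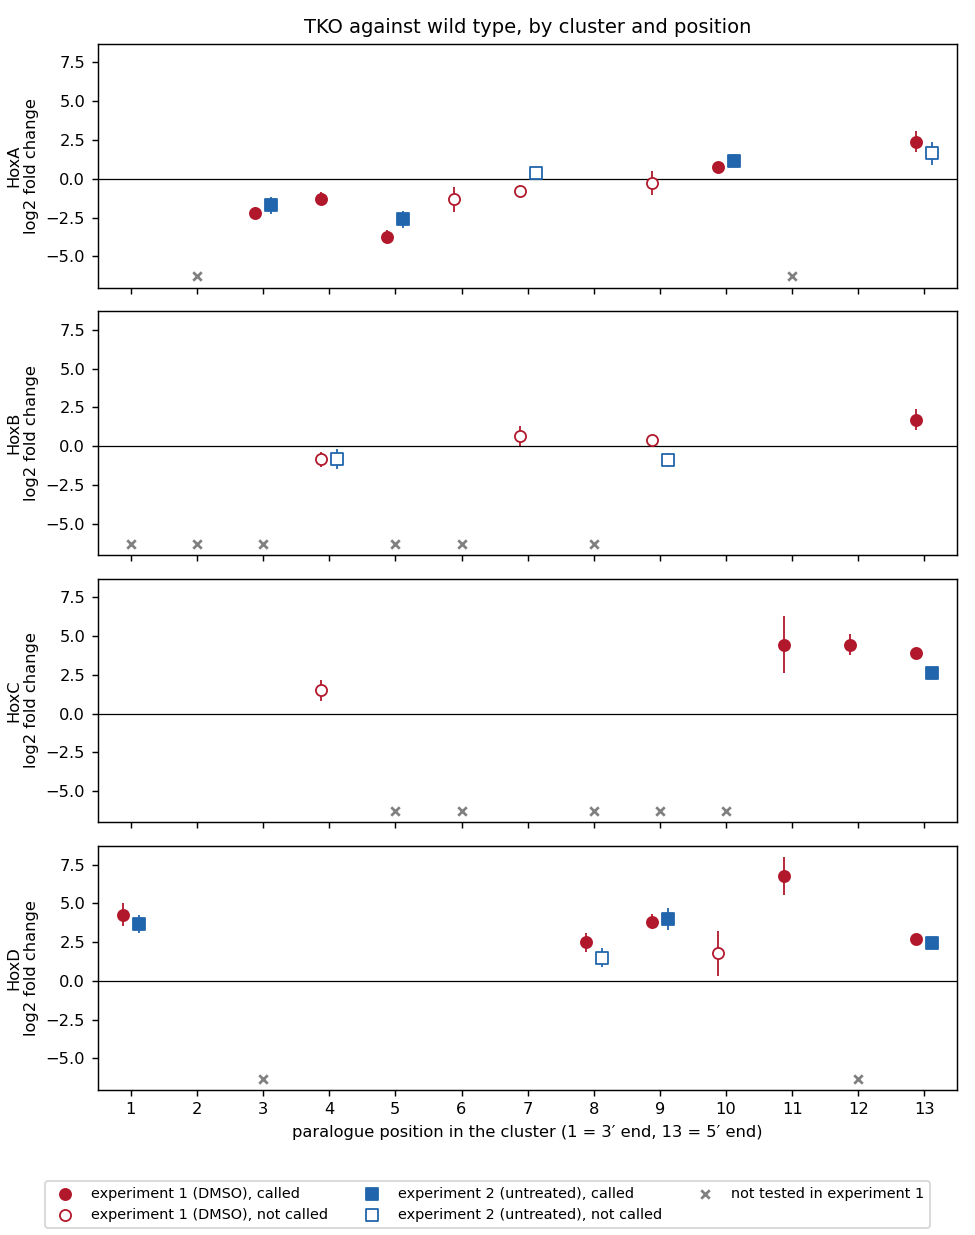
Log2 fold change (± SE) of TKO over wild-type cells for tested Hox genes by paralogue position (left to right), in experiment 1 with DMSO and in experiment 2 untreated; filled symbols were called, and crosses mark genes not tested in experiment 1. Hoxa3 and Hoxa5 lie below 0 and Hoxa10 above 0 in both experiments; fitted folds of Hoxc11 and Hoxd11, at 0 in wild-type cells with DMSO, are not bounds.

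Experiment 2 repeats the genotype comparison in untreated cells with other libraries. Of 13 members tested, 5 were higher and 3 were lower in TKO cells than in wild-type cells by edgeR's quasi-likelihood test (25.9% and 24.3% of 16303 genes, 50.2% in all). Hoxa10, Hoxc13, Hoxd1, Hoxd9 and Hoxd13 were called upward, and Hoxa3 and Hoxa5 were among those called downward. Of the 13 members tested in both experiments, 10 were called in experiment 1 and 8 in experiment 2, and 8 were called in the same direction in both, which is 80% of the first and 100% of the second. Over the 15878 genes tested in both experiments, 6925 were called in both in the same direction, 61.8% of the calls of experiment 1 and 85.9% of those of experiment 2, and 150 in opposite directions. No Hox gene was called in opposite directions. The median log2 fold change was 1.18, against -0.00 over all genes. Members nearly silent in wild-type cells, such as Hoxd1 and Hoxd9, passed the low-count filter only through the knockout libraries. The counts and the median therefore describe the tested members only. With only genes of mean 1 CPM or more in the fit, 4 members were tested, 2 higher and 1 lower.

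Hoxd13 stood at 3.27 and 4.84 CPM in untreated TKO cells, against 0.635 and 0.838 CPM in untreated wild-type cells. Hoxc13 stood at 2.30 and 2.32 CPM, against 0.282 and 0.485 CPM. Both genes had TKO libraries well above the wild-type ones, with log2 fold changes of 2.47 (SE 0.30, adjusted p = 3.7e-05) and 2.61 (SE 0.35, adjusted p = 7.1e-05). Hoxd9 stood at 0.938 and 1.68 CPM in TKO cells, against 0 and 0.176 CPM in wild-type cells, a log2 fold change of 3.97 (adjusted p = 0.00059). The call held without either wild-type library, but the value was 2.84 without library 1, which had 0 counts, and 8.49, a fit against 0 and no bound, without library 2, which had 4 counts. Hoxd1 stood at 0.853 and 1.26 CPM in TKO cells, against 0.0353 and 0.132 CPM in wild-type cells, a log2 fold change of 3.67 (adjusted p = 0.00032; 2.94 without wild-type library 1 and 4.76 without wild-type library 2). Hoxa5 stood at 0.142 and 0.194 CPM in TKO cells, against 0.953 and 1.15 CPM in wild-type cells, a log2 fold change of -2.62 (SE 0.54, adjusted p = 0.0017). For all of these genes the 2 groups did not overlap.

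Hoxa3 stood at 0.227 and 0.161 CPM in untreated TKO cells, against 0.60 and 0.706 CPM in untreated wild-type cells, and Hoxa10 at 0.739 and 1.07 CPM, against 0.318 and 0.485 CPM. Neither gene had overlapping groups, but their calls were less steady. Their log2 fold changes were -1.71 (adjusted p = 0.019) and 1.18 (0.041), and each was lost when any 1 of the 4 libraries was left out. The adjusted p then ranged from 0.0628 to 0.15 for Hoxa3 and from 0.0571 to 0.271 for Hoxa10. Replicate numbers marked shared variation in this experiment, and with the replicate as a block Hoxb9, at 0.654 and 1.32 CPM in TKO cells and 1.31 and 2.34 CPM in wild-type cells, was also called lower (adjusted p = 0.022) and Hoxd8 higher (0.03).

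**Figure D4:**
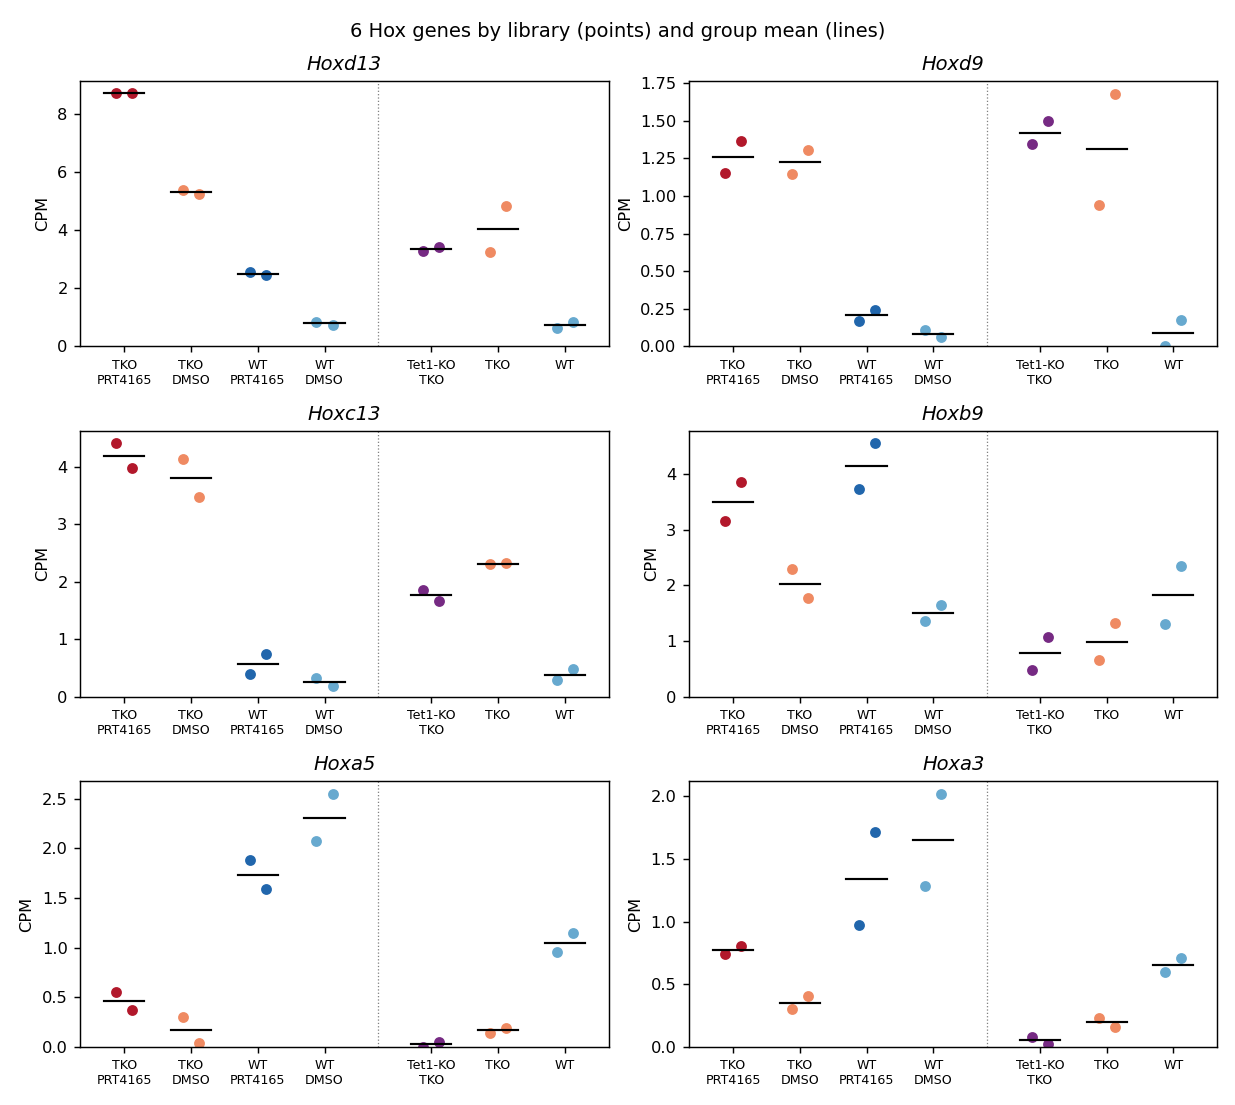
CPM of Hoxd13, Hoxd9, Hoxc13, Hoxb9, Hoxa5 and Hoxa3 in each library by group (points are libraries, lines group means). Hoxd13 lies between 5.26 and 8.74 CPM in the 4 TKO libraries of experiment 1, against 0.746 to 2.57 CPM in its 4 wild-type libraries.

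The next comparison concerns PRT4165 within each genotype; the sources used here give neither its dose nor its duration. In wild-type cells 3 of 23 tested members were higher and 0 lower with PRT4165 than with DMSO (19% and 18.7% of all genes). At an unadjusted p under 0.05, 7 were higher and 0 lower, and DESeq2 called 0 lower. In TKO cells 8 of 23 were higher and 0 lower with PRT4165 than with DMSO (19.9% and 19.6% of all genes). At an unadjusted p under 0.05, 8 were higher and 0 lower, and DESeq2 called 4 higher and 0 lower. Of the 8, Hoxd10 and Hoxc11 passed the low-count filter only through the TKO libraries with PRT4165. In TKO cells Hoxd10 had 42 counts with PRT4165 and 4 with DMSO, and Hoxc11 had 28 and 5. A fall of these genes could not have been seen, so the counts describe the tested members only. With only genes of mean 1 CPM or more in the fit, 4 of 8 tested members were higher and 0 lower in TKO cells.

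Hoxd13 and Hoxb9 rose in both genotypes. In TKO cells Hoxd13 stood at 8.74 and 8.73 CPM with PRT4165, against 5.39 and 5.26 CPM with DMSO, a log2 fold change of 0.71 (SE 0.12, adjusted p = 4.7e-05). In wild-type cells it stood at 2.57 and 2.45 CPM with PRT4165, against 0.857 and 0.746 CPM with DMSO, a log2 fold change of 1.65 (SE 0.22, adjusted p = 1.9e-06). The treated libraries lay above the vehicle libraries in each genotype. Hoxb9, a thoracic patterning gene, stood at 3.15 and 3.85 CPM in TKO cells with PRT4165, against 2.29 and 1.77 CPM with DMSO, a log2 fold change of 0.78 (adjusted p = 0.0025; 0.0658 without TKO DMSO library 2). In wild-type cells it stood at 3.74 and 4.57 CPM with PRT4165, against 1.36 and 1.65 CPM with DMSO, a log2 fold change of 1.44 (SE 0.20, adjusted p = 5.2e-06). Its treated and vehicle libraries did not overlap in either genotype.

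In TKO cells the other members called higher were Hoxa3, Hoxa5, Hoxa7, Hoxa9, Hoxc11 and Hoxd10. Hoxd10, a limb and motor neuron gene, stood at 0.52 and 0.715 CPM with PRT4165, against 0.0337 and 0.1 CPM with DMSO, a log2 fold change of 3.12 (SE 0.68, adjusted p = 0.00073; 4.02 without DMSO library 2). Hoxa7 stood at 1.26 and 1.86 CPM with PRT4165, against 0.572 and 0.636 CPM with DMSO, a log2 fold change of 1.35 (SE 0.32, adjusted p = 0.0018). These 2 members kept their call in every leave-one-out fit. Hoxa3 stood at 0.74 and 0.808 CPM with PRT4165, against 0.303 and 0.402 CPM with DMSO, and Hoxa5 at 0.548 and 0.373 CPM, against 0.303 and 0.0335 CPM, so that neither gene's groups overlapped. Hoxa3 (log2 fold change 1.12, adjusted p = 0.04) lost it without any 1 of the 4 libraries, the adjusted p then ranging from 0.0905 to 0.212. Hoxa5 (1.45, 0.046) lost it without TKO DMSO library 2 (0.471), PRT4165 library 1 (0.267) or PRT4165 library 2 (0.0558). The Hoxa5 call held in 3 of 11 alternatives, and its log2 fold change was 3.63 without DMSO library 1 and 0.59 without DMSO library 2. Hoxa9, a blood progenitor gene, stood at 0.794 and 0.373 CPM with PRT4165, against 0.101 and 0.167 CPM with DMSO, and Hoxc11 at 0.438 and 0.373 CPM, against 0.135 and 0.0335 CPM. Hoxa9 (2.11, 0.0058) lost it without DMSO library 1 (0.0825) or PRT4165 library 1 (0.166), and Hoxc11 (2.22, 0.011) without DMSO library 2 (0.185) or PRT4165 library 1 (0.0833).

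In wild-type cells the remaining call was Hoxd11, with 7 counts with PRT4165 and 0 with DMSO, at least 2.36-fold higher. It was lost without any 1 of the 4 libraries, the adjusted p then ranging from 0.0599 to 0.102. Among untested members, Hoxb2, Hoxb3, Hoxb5, Hoxb6 and Hoxb8 together had 36 counts in TKO cells with PRT4165 and 4 with DMSO, and 43 counts in wild-type cells with PRT4165 and 5 with DMSO. These 5 were grouped after their values were seen, and their sum has no test. Without the low-count filter, Hoxb3 (adjusted p = 0.043) and Hoxb8 (0.033) were called higher in TKO cells, and Hoxb6 (0.038) and Hoxb8 (0.028) in wild-type cells.

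**Figure D5:**
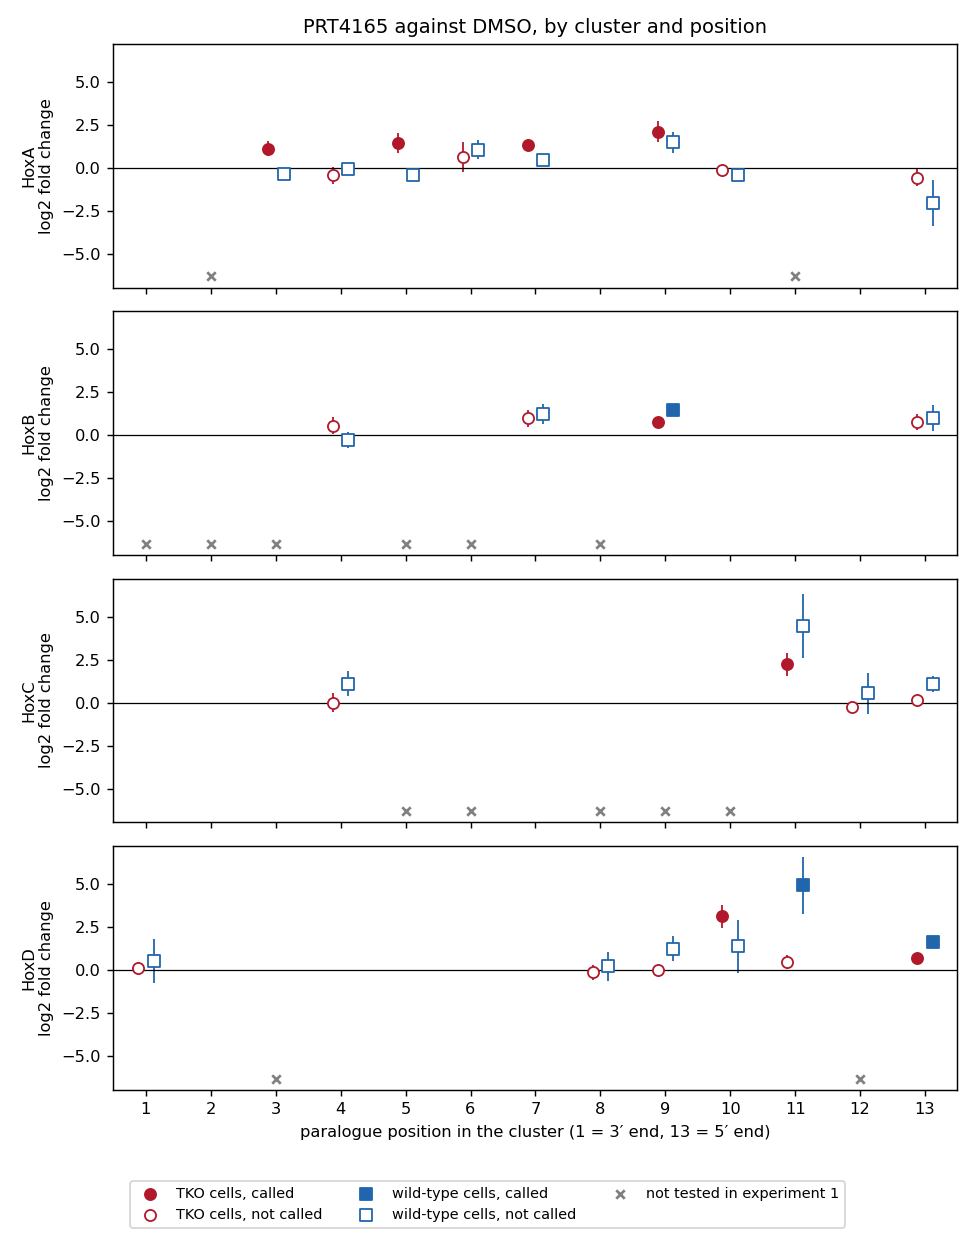
Log2 fold change (± SE) of PRT4165 over DMSO for tested Hox genes in TKO cells and in wild-type cells, by paralogue position; filled symbols were called, and crosses mark genes not tested. No called gene lies below 0; fitted folds of Hoxc11 and Hoxd11 in wild-type cells, at 0 with DMSO, are not bounds.

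Whether the PRT4165 response differs between genotypes was tested as an interaction. Of 23 members, 0 had a larger and 1 a smaller response in TKO than in wild-type cells (1.77% and 2.12% of all genes, 3.89% in all). At an unadjusted p under 0.05, 2 were larger and 3 smaller, and DESeq2 called 0 in either direction. The 1 member was Hoxd13, whose response was smaller by a log2 difference of -0.94 (SE 0.25, adjusted p = 0.037), and this call was kept without wild-type DMSO library 1 but lost without any of the other 7, the adjusted p then ranging from 0.0659 to 0.134. In TKO cells its DMSO level was already higher than in wild-type cells, and its rise in CPM was larger.

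TKO cells with PRT4165 were also set against wild-type cells with DMSO, which differ in genotype and treatment. Of 23 members, 16 were higher and 4 lower (39.6% and 36.7% of all genes, 76.2% in all). All 12 tested members at positions 9 to 13 were among the 16, and Hoxa3, Hoxa4 and Hoxa5 were among the 4 lower members. A member silent in wild-type cells with DMSO passes the filter only through the other groups. The counts here therefore describe the tested members only. Hoxd13 stood at 8.74 and 8.73 CPM in TKO cells with PRT4165, against 0.857 and 0.746 CPM in wild-type cells with DMSO, a log2 fold change of 3.44 (SE 0.17, adjusted p = 6.2e-15). Hoxc11 had 28 counts in TKO cells with PRT4165 and 0 in wild-type cells with DMSO, at least 8.17-fold higher, and Hoxd11 had 41 and 0, at least 12-fold higher. Hoxd10 had 42 counts and 1 count in these groups, a ratio of 36.8 (95% exact interval 6.25 to 1487). Hoxb7 stood at 0.466 and 0.466 CPM in TKO cells with PRT4165, against 0.107 and 0.187 CPM in wild-type cells with DMSO, and Hoxc4 at 0.247 and 0.435 CPM, against 0.179 and 0.0622 CPM. Both genes had groups that did not overlap. Some of these calls rested on 1 library. Without wild-type library 1, Hoxa13 (adjusted p = 0.19) and Hoxb7 (0.0974) were not called. Without wild-type library 2, Hoxa3 (0.0885), Hoxa9 (0.107), Hoxa10 (0.208) and Hoxc4 (0.341) were not. Without TKO library 1, Hoxa9 (0.175) and Hoxa10 (0.0751) were not, and without TKO library 2, Hoxa10 (0.1), Hoxa13 (0.144) and Hoxc4 (0.293) were not.

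The last comparison sets Tet1 knockout TKO cells against TKO cells, which are separate lines, so Tet1 deletion and line cannot be told apart. Remaining Dnmt3a transcript was also lower in the Tet1 knockout line. Its log2 fold change was -1.04 (adjusted p = 0.0006 by edgeR's quasi-likelihood test). The part of Dnmt3a in the Hox results was not tested. Of 13 tested members, 0 were higher and 1 was lower in Tet1 knockout TKO cells than in TKO cells (11.6% and 10.4% of 16303 genes, 22% in all). At an unadjusted p under 0.05, 0 were higher and 4 lower, and DESeq2 called 0 in either direction. Scaling by library size alone put the share of all calls that were higher at 40.6%, against 52.9%. The 1 member was Hoxa7, at 0.295 and 0.221 CPM in Tet1 knockout TKO cells, against 0.966 and 0.516 CPM in TKO cells. Hoxa7 shares exon bases with the antisense gene Hoxaas3, whose reads cannot be told apart from its own here. Its log2 fold change of -1.53 (SE 0.48, adjusted p = 0.041) lost the call without TKO library 1 (0.397), Tet1 knockout library 1 (0.0965) or Tet1 knockout library 2 (0.181).

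Hoxa10, at 0.376 and 0.417 CPM in Tet1 knockout TKO cells and 0.739 and 1.07 CPM in TKO cells, had a log2 fold change of -1.17 (adjusted p = 0.059), and was called with the replicate as a block (0.037). Hoxa5 had 2 counts in Tet1 knockout TKO cells and 11 in TKO cells, a ratio of 0.154 (95% exact interval 0.0166 to 0.707), and was not called (adjusted p = 0.077). Hoxd13 stood at 3.28 and 3.44 CPM in Tet1 knockout TKO cells, against 3.27 and 4.84 CPM in TKO cells, and these overlapped. Its log2 fold change was -0.27 (SE 0.24, adjusted p = 0.47). Against untreated wild-type cells, Tet1 knockout TKO cells had 6 of 13 members higher and 3 lower (26.3% and 24.4% of 16303 genes, 50.7% in all). Members nearly silent in wild-type cells passed the filter only through the other groups, so these counts describe the tested members only. Hoxa13, Hoxc13, Hoxd1, Hoxd8, Hoxd9 and Hoxd13 were higher, and Hoxa3, Hoxa5 and Hoxb9 were lower. Hoxa5 had 2 counts in Tet1 knockout TKO cells and 53 in wild-type cells, a ratio of 0.0247 (95% exact interval 0.00291 to 0.0936). The calls of Hoxa13 (log2 fold change 1.96, adjusted p = 0.035), Hoxb9 (-1.19, 0.046) and Hoxd8 (1.98, 0.014) rested on single libraries. Without wild-type library 1, Hoxa13 (0.266) and Hoxd8 (0.121) were lost, and without wild-type library 2, Hoxb9 (0.302). Without Tet1 knockout library 1, Hoxa13 (0.051) and Hoxb9 (0.239) were lost, and without Tet1 knockout library 2, Hoxa13 (0.169) and Hoxd8 (0.0824). With the replicate as a block, 4 members were lower.

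Genes known to act with or on the Hox clusters were counted from lists of textbook members, beside 34.8% higher, 34.2% lower and a median log2 fold change of 0.01 over all genes in TKO cells with DMSO. Counts of so few genes near these shares are no result about a list. The TALE cofactors Pbx, Meis and Pknox, which bind DNA with Hox proteins, had 4 of 9 members higher and 3 lower in TKO cells with DMSO than in wild-type cells with DMSO, with a median log2 fold change of -0.01. Pbx3 was among the higher members (adjusted p = 8.5e-11), while the 3 lower members are not named here. Meis2 had a log2 fold change of 1.06 (SE 0.17, adjusted p = 4.6e-06). Of transcription factors upstream of Hox genes, 2 of 11 were higher and 5 lower. Gbx2, an anterior hindbrain factor, stood at 32.3 ± 1.05 CPM in TKO cells and 138 ± 8.20 CPM in wild-type cells (SD, n = 2 each), with a log2 fold change of -2.10 (adjusted p = 5.2e-20), while Cdx1 and Cdx2, caudal activators, moved apart, with log2 fold changes of -2.20 (adjusted p = 5e-09) and 1.25 (adjusted p = 9.2e-05).

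The retinoic acid pathway, which switches on 3′ Hox genes, had 9 of 19 tested members higher and 4 lower in TKO cells with DMSO, with a median log2 fold change of 0.76. The 4 lower members are not named here. Aldh1a2, which makes retinoic acid, stood at 3.71 ± 0.13 CPM in TKO cells with DMSO and 0.543 ± 0.11 CPM in wild-type cells with DMSO (SD, n = 2 each). With PRT4165 it stood at 7.03 ± 0.26 CPM in wild-type cells, against 0.543 ± 0.11 CPM with DMSO, a log2 fold change of 3.67 (SE 0.20, adjusted p = 4.6e-13). Polycomb PRC1 genes had 9 of 19 higher and 8 lower in TKO cells with DMSO, Bmi1 at 30.1 ± 1.06 CPM in TKO cells and 9.71 ± 0.06 CPM in wild-type cells, and Rnf2 at 125 ± 3.33 and 311 ± 1.21 CPM (SD, n = 2 each). PRC2 genes had 3 of 12 higher and 8 lower, and trithorax genes 4 of 13 higher and 7 lower. Of the noncoding RNAs in the clusters 3 were tested, with 1 higher and 1 lower. Haglr, whose exons overlap those of Hoxd3, had 19 counts in TKO cells with DMSO and 0 in wild-type cells with DMSO. Halr1, a noncoding RNA beside HoxA, stood at 5.72 ± 1.07 CPM in Tet1 knockout TKO cells and 15.1 ± 1.08 CPM in TKO cells (SD, n = 2 each). Of flanking genes, 9 of 17 were higher and 7 lower in TKO cells with DMSO.

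The shares over all genes, given with each comparison above, were 25.9% higher and 24.3% lower for untreated TKO over wild-type cells, 19.9% and 19.6% for PRT4165 in TKO cells, 19% and 18.7% for PRT4165 in wild-type cells, and 11.6% and 10.4% for Tet1 knockout TKO over TKO cells. In experiment 2 the retinoic acid genes had 7 of 18 tested members higher and 3 lower in untreated TKO cells than in wild-type cells, and the cofactors 3 of 9 higher and 2 lower. Evx1, an even-skipped homeobox gene that flanks HoxA at its 5′ end, stood at 2.19 ± 0.45 CPM in untreated TKO cells and 0.154 ± 0.03 CPM in untreated wild-type cells (SD, n = 2 each). With PRT4165 the retinoic acid genes had 4 of 19 higher, near the share over all genes, and 1 lower in TKO cells, and 7 of 19 higher and 2 lower in wild-type cells. Transcription factors upstream of Hox genes had 2 of 11 higher with PRT4165, near the share over all genes, and 1 lower, in each genotype. Among the listed factors, Egr2, a hindbrain factor that activates 3′ Hox genes, stood at 1.35 ± 0.16 CPM in TKO cells with PRT4165 and 0.167 ± 0.19 CPM with DMSO, and at 1.67 ± 0.06 CPM in wild-type cells with PRT4165 and 0.10 ± 0.01 CPM with DMSO (SD, n = 2 each). PRC1 genes had 4 of 19 higher and 2 lower with PRT4165 in TKO cells and 5 of 19 higher and 3 lower in wild-type cells. PRC2 genes had 1 of 12 higher and 4 lower in TKO cells and 1 of 12 higher and 6 lower in wild-type cells. In Tet1 knockout TKO cells 6 of 19 PRC1 genes were higher than in untreated TKO cells.

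Markers of other cell types moved with the genotype. Of the 10 trophoblast markers tested, 9 were higher and 0 lower in TKO cells with DMSO, their sum being 494 to 508 CPM against 35.4 to 42.7 CPM in wild-type cells with DMSO, with 0 of 10 markers at 0 in TKO libraries and 2 in each wild-type library. Of 8 tested neural ectoderm markers 7 were higher and 0 lower, summing to 86.7 to 88.7 CPM against 27.8 to 33.2 CPM, with 0 of 9 markers at 0 in TKO libraries and 2 in each wild-type library. Posterior mesoderm and axial progenitor markers summed to 13.7 to 15.4 CPM in TKO cells and 7.11 to 7.28 CPM in wild-type cells, with 3 of 7 tested higher and 1 lower. Primitive endoderm markers summed to 987 to 1030 CPM in TKO cells and 1178 to 1187 CPM in wild-type cells, with 1 of 10 tested higher and 7 lower. Fibroblast markers summed to 31.0 to 32.6 CPM in TKO cells and 35.9 to 36.5 CPM in wild-type cells. Of 10 tested, 4 were higher and 3 lower in TKO cells. In wild-type cells 5 of 14 markers were at 0, and in TKO cells none was. Col3a1 had 25 and 35 counts in TKO cells, against 0 and 0 in wild-type cells. Thy1 went the other way, at 2.19 and 1.71 CPM in TKO cells, against 6.43 and 6.28 CPM in wild-type cells. The part of these cell types in the Hox results was not tested. With PRT4165, 7 of 10 pluripotency markers were lower than with DMSO in each genotype and 0 were higher, and trophoblast markers summed to 700 to 710 CPM in TKO cells with PRT4165, against 494 to 508 CPM with DMSO. All 10 pluripotency markers were lower in TKO cells with PRT4165 than in wild-type cells with DMSO, summing to 2967 to 3092 against 5320 to 5389 CPM. Between untreated TKO and wild-type cells, 7 of the 10 were lower and 2 higher. In untreated TKO cells neural ectoderm markers summed to 113 to 120 CPM, against 21.6 to 25.0 CPM in untreated wild-type cells, and posterior mesoderm markers to 13.1 to 13.9 CPM, against 3.18 to 3.25 CPM. In Tet1 knockout TKO cells 7 of 9 tested primitive endoderm markers were higher than in untreated TKO cells, their sum being 802 to 1899 CPM against 437 to 767 CPM. Of 8 tested fibroblast markers 1 was higher and 4 lower there, summing to 16.4 to 20.3 CPM against 27.1 to 30.3 CPM. In Tet1 knockout TKO cells trophoblast markers summed to 362 to 422 CPM, against 128 to 139 CPM in untreated TKO cells and 39.4 to 40.6 CPM in untreated wild-type cells. Their part in the results of experiment 2 and of PRT4165 was not tested either.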

How the data were processed

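Poly(A) RNA was sequenced from 14 libraries in 7 groups of 2 (NEBNext Ultra kit, per the labels' protocols). The authors deposited whole-number read counts per Ensembl gene, 1 table per experiment. The tools, per the submitters' processing notes, were HTSeq 0.5.3p9, TopHat2 2.0.2 and Bowtie 0.12.8, with mm9 as the build. The sources used here give no annotation release, strand setting, PRT4165 dose or duration. Of 37991 identifiers, 32919 were matched to a GENCODE M21 symbol, and identifiers without one held 0.482 to 0.85% of counts.

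Each experiment was fitted separately over all genes with edgeR 4.0.16 in R 4.3.3 (TMM scaling, filterByExpr at a count of at least 10 and a total of at least 15, quasi-likelihood test, Benjamini-Hochberg adjusted p under 0.05). This tested 16711 genes and 23 Hox genes in experiment 1, and 16303 genes and 13 Hox genes in experiment 2. The fit was run on simulated counts with a single dispersion for all genes and few genes changed, up and down alike. At a log2 change of 1, 89.7% were recovered in experiment 1 and 80.6% in experiment 2. The simulation does not check scaling where as many genes are called as here. Recovery at low counts was not looked at separately. Hox genes silent in one group received a lower bound with a floor of 3 counts over the group. Intervals and floors cover counting error only. The labels do not say that replicates are separate cultures, so p-values measure the spread between these libraries, which may be technical.

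In experiment 2, same-numbered libraries deviated together (correlations of 0.149, 0.187 and 0.465 over 9166 genes), so the fit with the replicate as a block is given where it changed a call. The members and gene lists were chosen with earlier results of these data known. Members called in at least 1 comparison or reaching 1 CPM were to be named, with up to 3 called genes per list and direction. Alternatives were library-size scaling, DESeq2 1.42.0, other low-count filters, a replicate block, only the groups compared, and leaving out each library. Some genes enter the counts and sums but are not reported here by name or drawn singly. Promoters are RefSeq's, on GRCm38.p6.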

Additional observations from a re-analysis of the deposited data

Results flagged for a closer look

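The PRT4165 response of Hoxd13, as a fold, differed between the genotypes by a test of the difference itself. The log2 response was 0.71 in TKO cells and 1.65 in wild-type cells, and the interaction was -0.94 (SE 0.25, adjusted p = 0.037 by edgeR's quasi-likelihood test). Hoxd13 stood at 8.74 and 8.73 CPM in TKO cells with PRT4165, against 5.39 and 5.26 CPM with DMSO. In wild-type cells it stood at 2.57 and 2.45 CPM with PRT4165, against 0.857 and 0.746 CPM with DMSO. In CPM the rise was larger in TKO cells. DESeq2 gave an adjusted p of 0.18 for the same difference, and the call was lost without any 1 of 7 of the 8 libraries.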

How the results depend on the processing

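Of 65 calls of Hox genes, 40 held in every alternative, 25 were lost in at least 1 and 0 reversed. With genes of mean 1 CPM or more only, 8 members were tested in experiment 1 and 4 in experiment 2. TKO over wild type with DMSO then had 3 higher and 3 lower. PRT4165 gave 4 higher and 0 lower in TKO cells, and 2 higher and 0 lower in wild-type cells. TKO with PRT4165 over wild type with DMSO had 5 higher and 3 lower. Untreated TKO over wild type had 2 higher and 1 lower. Tet1 knockout TKO had 0 higher and 0 lower over TKO, and 2 higher and 0 lower over wild type. Without a low-count filter the counts were 7 higher for PRT4165 in wild-type cells, 2 larger interactions and 8 higher for untreated TKO over wild type. Tet1 knockout TKO then had 4 lower over TKO and 6 lower over wild type. DESeq2 called 4 higher for PRT4165 in TKO cells, 0 smaller interactions, 1 lower for untreated TKO over wild type and 0 lower for Tet1 knockout TKO over TKO. For this last comparison, library-size scaling, the replicate block and the fit of only the groups compared each gave 2 lower. The cause of these shifts was not tested. Shares over all genes under most alternatives are not given here, so these counts and those below show only how the Hox calls moved.

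Leaving out each library gave 8 to 10 higher and 3 to 5 lower for TKO over wild type with DMSO, 2 to 5 and 0 to 0 for PRT4165 in wild-type cells, 4 to 6 and 0 to 0 for PRT4165 in TKO cells, 13 to 15 and 3 to 4 for TKO with PRT4165 over wild type with DMSO, and 0 to 1 in each direction for the interaction. It gave 5 to 8 higher and 1 to 2 lower for untreated TKO over wild type, 0 to 0 and 0 to 1 for Tet1 knockout TKO over TKO, and 4 to 6 and 3 to 4 for it over wild type. In experiment 1 the replicate numbers did not pair the libraries (correlations from -0.07 to 0.116), and the block gave 5 lower for TKO over wild type and 7 higher for PRT4165 in TKO cells. In experiment 2 the paired fit gave 6 higher and 4 lower for TKO over wild type, and 6 and 4 for Tet1 knockout TKO over wild type. Over all 16303 genes it gave 4501 higher and 4289 lower for the first, and 4540 and 4286 for the second. Most members lie under 1 CPM, where few counts limit what can be detected.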
